A study of Rattus norvegicus with 16 samples.

Results

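The genes described here are those of the extracellular matrix and of the cell's contact with it: collagens, laminins, integrin subunits, matrix metalloproteinases (Mmp), their tissue inhibitors (Timp), and 6 further genes, Fn1, Sparc, P4ha1, Lox, Dcn and Bgn. They were taken by gene symbol from the array annotation, which gave 82 probe sets for 53 genes among 8740 probe sets that are not controls. No probe set carried an Adamts symbol. A probe set is a group of oligonucleotides on the array for 1 or more transcripts, and 51 of the 82, standing for 34 genes, were bright enough to be tested. The other 31 are described at the end.

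RNA of the 2 kidneys of each of 8 rats was hybridised to 16 one-colour arrays, 1 for each kidney. The right kidney had been given ACTH (adrenocorticotropic hormone) in rats 1 and 5, DEX in rats 3 and 7, and saline in rats 2, 4, 6 and 8. In each animal the left kidney served as control. DEX is the labels' abbreviation and is not expanded there. The labels' titles give 4 saline rats, while the series' text gives 2 rats for each treatment, and the titles were followed. Strain, sex, age, dose, route and duration are not in the labels, so whether the agents also reached the left kidneys is unknown. All kidneys are whole-tissue samples, in which fewer cells of a type and less RNA per cell cannot be told apart.

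Collagen fibres give tissue its tensile strength. The fibrillar collagens, types I, II, III, V and XI, are secreted as triple helices, chiefly by fibroblasts and related stromal cells, while type IV collagen and laminins form the sheet-like basement membranes under epithelia and endothelia. P4ha1 is the catalytic subunit of a prolyl hydroxylase that stabilises the collagen helix, and Lox crosslinks the finished fibre. Integrins are paired alpha and beta receptors that bind matrix to the cytoskeleton, Mmp enzymes cleave matrix proteins, and Timp proteins block those enzymes. Glucocorticoids are known in many tissues to lower the mRNA of fibrillar collagens, and ACTH drives the adrenal cortex to make glucocorticoids.

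Of the 53 genes, 37 had a promoter in the RefSeq table for the rat assembly GRCr8, covering 250 bases before to 50 bases after the annotated start. Col1a1 and Col3a1 were not among them. The windows of Col1a2, Col5a1 and Col5a2 are shown because these 3 are the tested fibrillar collagen genes with a window, and all had negative effects of both agents. Col1a2 lies on the plus strand at chr4:33518307-33518606, Col5a1 on the plus strand at chr3:31606630-31606929 and Col5a2 on the minus strand at chr9:55090102-55090401. Capitals mark TATAAA (the TATA box), CCAAT and TGTTCT (part of the sequence that the glucocorticoid receptor binds). Each was searched on both strands, so that ATTGG is CCAAT and AGAACA is the third motif on the opposite strand.
Col1a2: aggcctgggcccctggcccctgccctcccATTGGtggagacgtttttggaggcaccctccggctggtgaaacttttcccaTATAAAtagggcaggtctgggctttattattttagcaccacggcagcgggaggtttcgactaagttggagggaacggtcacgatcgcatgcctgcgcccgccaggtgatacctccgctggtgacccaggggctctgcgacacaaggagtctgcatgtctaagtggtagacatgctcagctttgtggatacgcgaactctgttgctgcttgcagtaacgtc
Col5a1: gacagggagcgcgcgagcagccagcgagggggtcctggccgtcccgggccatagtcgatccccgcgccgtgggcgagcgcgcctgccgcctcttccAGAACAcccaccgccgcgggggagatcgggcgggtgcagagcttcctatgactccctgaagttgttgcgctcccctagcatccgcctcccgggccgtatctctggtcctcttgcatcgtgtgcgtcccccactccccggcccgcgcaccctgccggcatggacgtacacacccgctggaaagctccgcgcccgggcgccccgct
Col5a2: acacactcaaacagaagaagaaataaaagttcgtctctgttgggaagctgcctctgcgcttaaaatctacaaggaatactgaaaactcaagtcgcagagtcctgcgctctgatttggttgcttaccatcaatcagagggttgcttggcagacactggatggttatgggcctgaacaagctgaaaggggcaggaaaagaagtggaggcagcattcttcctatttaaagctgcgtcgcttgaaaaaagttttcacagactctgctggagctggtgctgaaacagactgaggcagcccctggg
The Col1a2 window held the first and the second motif once each, the Col5a1 window held the third once, and the Col5a2 window held none. Over all 33469 windows in the table, 14.2% held the first motif, 37.5% the second and 20.7% the third. These matches describe letters only.

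Below, a change is right minus left kidney on the log2(signal + 16) scale, and an effect is the change of hormone rats minus that of saline rats. It was fitted with limma over all 5244 tested probe sets, with a term for each rat, and adjusted p-values (Benjamini-Hochberg) cover those probe sets. ACTH and DEX are set against the same 4 saline rats, so their effects share that group's error. Values after ± are standard errors (SE).

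Fibrillar collagens had the lowest class median under DEX and, narrowly, under ACTH, where other matrix proteins had -0.39. In rats 5 to 8 alone the ACTH median of the other matrix proteins was the lower one, -0.64 beside -0.16 for fibrillar collagens. All 5 tested genes were negative under ACTH, with a class median of -0.42, and all 5 under DEX, with a median of -0.62, beside medians of 0.00 over all tested probe sets. Col3a1 was the 1 gene past the threshold of 0.05, for ACTH, under which it was 2.10-fold lower. Of all tested probe sets, 0.496% passed for ACTH and 0.0% for DEX. The class median of the change, rat by rat, was -0.92 and -0.14 in the ACTH rats and -0.48 and -0.50 in the DEX rats, against 0.19, -0.08, 0.10 and -0.12 in the saline rats. The low ACTH value is that of rat 1, and ACTH rat 5 lay close to the saline rats. Without rat 1 the ACTH median was -0.205 and without rat 5 it was -0.95.

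Col3a1 encodes the chain of type III collagen, a fibre of vessel walls and kidney stroma. Its brighter probe set (X70369_s_at) had signals of 162 and 226 in ACTH right kidneys, 142 and 297 in DEX right kidneys, and 306, 278, 485 and 461 in saline right kidneys. The left kidneys read 414 and 343 in ACTH rats, 283 and 606 in DEX rats, and 275, 267, 369.6 and 457 in saline rats. In all 4 hormone rats the right kidney was below its own left kidney, and in all 4 saline rats it was above. The change was -1.27 and -0.57 under ACTH and -0.92 and -0.99 under DEX, against 0.15, 0.05, 0.38 and 0.01 under saline, with no overlap between hormone and saline rats. The ACTH effect was -1.07 ± 0.20 (limma, adjusted p = 0.0448). The DEX effect was nearly as large, -1.10 ± 0.20, but did not pass over all probe sets (limma, adjusted p = 0.729). The mean of both effects was -1.09 ± 0.17 (limma, adjusted p = 0.0628), and an exact two-sided permutation test of the 4 hormone against the 4 saline changes gave p = 0.0286, the smallest that 4 against 4 rats allow. The probe set was chosen among many, so that p is a description of 1 value.

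The Col3a1 call under ACTH rests on few animals. Within ACTH rats the right kidney fell by 0.92 below the left (limma, adjusted p = 0.00987). The call over saline held without ACTH rat 5 (effect -1.42, adjusted p = 0.00325 in limma) and was lost without any 1 of the other 7 rats, where adjusted p lay between 0.0763 and 0.123 and the effect between -1.12 and -0.72. The value without ACTH rat 1 was the least negative, -0.72. In rats 1 to 4 alone the ACTH effect was -1.38, and in rats 5 to 8 alone it was -0.77. The DEX effect was -1.02 and -1.19 in those 2 sets of rats.

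**Figure D1:**
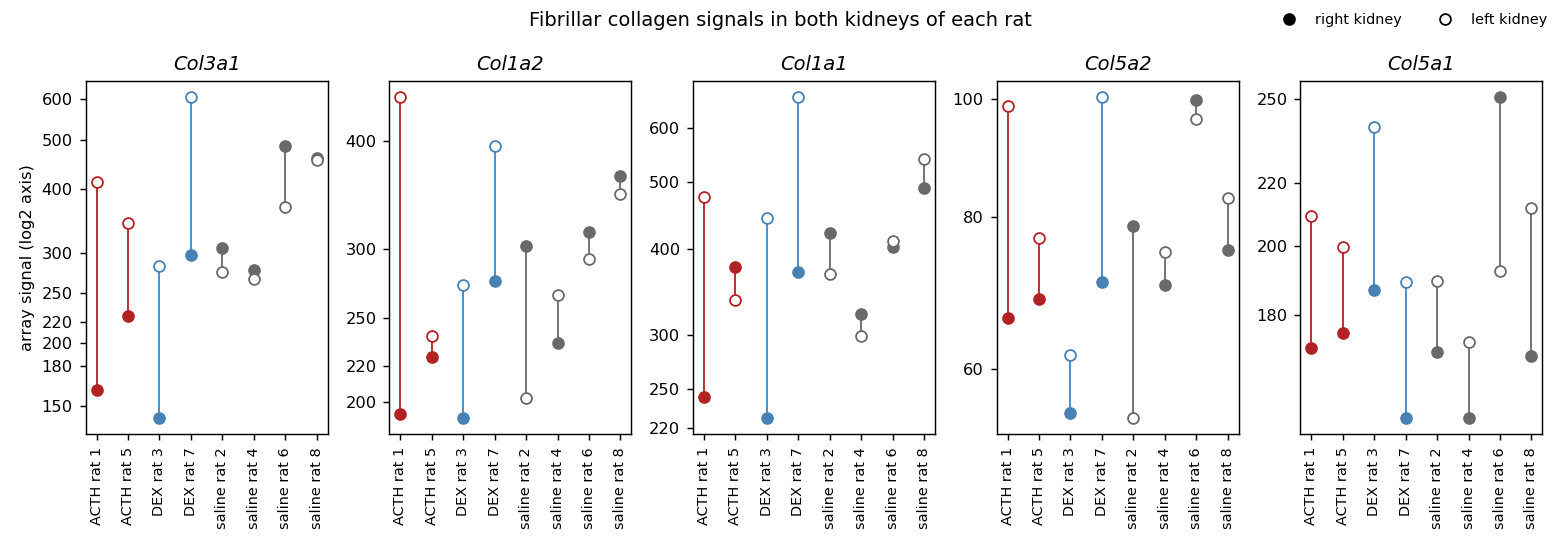
Array signal (log scale) of the brightest probe set of each tested fibrillar collagen gene in the right (filled) and left (open) kidney of every rat, ACTH rats in red, DEX rats in blue and saline rats in grey; a line joins the 2 kidneys of a rat. Col3a1 was lower in the right kidney of all 4 hormone rats, while the right kidney of ACTH rat 5 was close to or above the left for Col1a2 (225 and 239) and Col1a1 (376 and 337).

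Col1a1 and Col1a2 encode the 2 chains of type I collagen, the most abundant fibre of connective tissue. The brightest Col1a1 probe set (rc_AI231472_s_at) read 244 and 376 in ACTH right kidneys, 227 and 371 in DEX right kidneys, and 422, 322, 403 and 490.5 in saline right kidneys. In the left kidneys it read 476 and 337 in ACTH rats, 444 and 665 in DEX rats, and 368, 299, 411 and 541 in saline rats. Both DEX changes, -0.92 and -0.82, were below every saline change, and the ACTH rats were split, with changes of -0.92 in rat 1 and 0.15 in rat 5. The DEX effect was -0.90 ± 0.25 (limma, unadjusted p = 0.0032, adjusted p = 0.999), and the ACTH effect was -0.42 ± 0.25.

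For Col1a2 the signals were 193 and 225 in ACTH right kidneys, 191 and 275 in DEX right kidneys, and 302, 234, 314 and 364 in saline right kidneys. Its left kidneys read 449 and 239 in ACTH rats, 273 and 395 in DEX rats, and 202, 266, 293 and 347 in saline rats. The right kidneys of hormone and saline rats overlapped, and both DEX changes, -0.48 and -0.49, lay below every saline change. The ACTH effect was -0.75 ± 0.27 (adjusted p = 0.369 in limma) and the DEX effect -0.62 ± 0.27 (adjusted p = 0.999 in limma). ACTH rat 1 carried most of the ACTH value, which was -0.21 without it.

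Col5a1 and Col5a2 encode chains of type V collagen, which regulates the thickness of type I fibres. Col5a2 had signals of 66.1 and 68.5 in ACTH right kidneys, 55.2 and 70.8 in DEX right kidneys, and 78.7, 70.3, 99.8 and 75.1 in saline right kidneys. The change of all 4 hormone rats was below that of every saline rat. The saline changes themselves ran from -0.12 to 0.42, so the gap between the groups was narrow. Its effects were -0.38 ± 0.18 under ACTH and -0.34 ± 0.18 under DEX, neither past the threshold. Col5a1 effects were smaller, -0.16 ± 0.18 and -0.24 ± 0.18 for ACTH and DEX, and its rats overlapped.

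Other probe sets of the same 2 genes did not all give the same value. For Col1a1, probe set Z78279_at had effects of -0.57 under ACTH and -0.73 under DEX, and Z78279_g_at had -0.67 and -0.76. The fourth, M27207mRNA_s_at, had 0.47 under ACTH and -0.05 under DEX with an SE of 0.92. On it the left kidney of saline rat 8 read 1429 and the right kidney 102. Without rat 8 the same probe set gave -0.49 and -1.01. The second Col3a1 probe set, M21354_s_at, had effects of -0.33 and -0.39, and its left signal in saline rat 8 was 392, beside 139 to 207 in the other left kidneys. Without rat 8 it gave -0.64 under ACTH and -0.70 under DEX (adjusted p = 0.278 and 1.00 in limma). Saline rat 8 did not stand apart on X70369_s_at, whose change there was 0.01. By the array maker's naming, a name that ends in _s_at marks a probe set that may match more than 1 transcript.

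**Figure D2:**
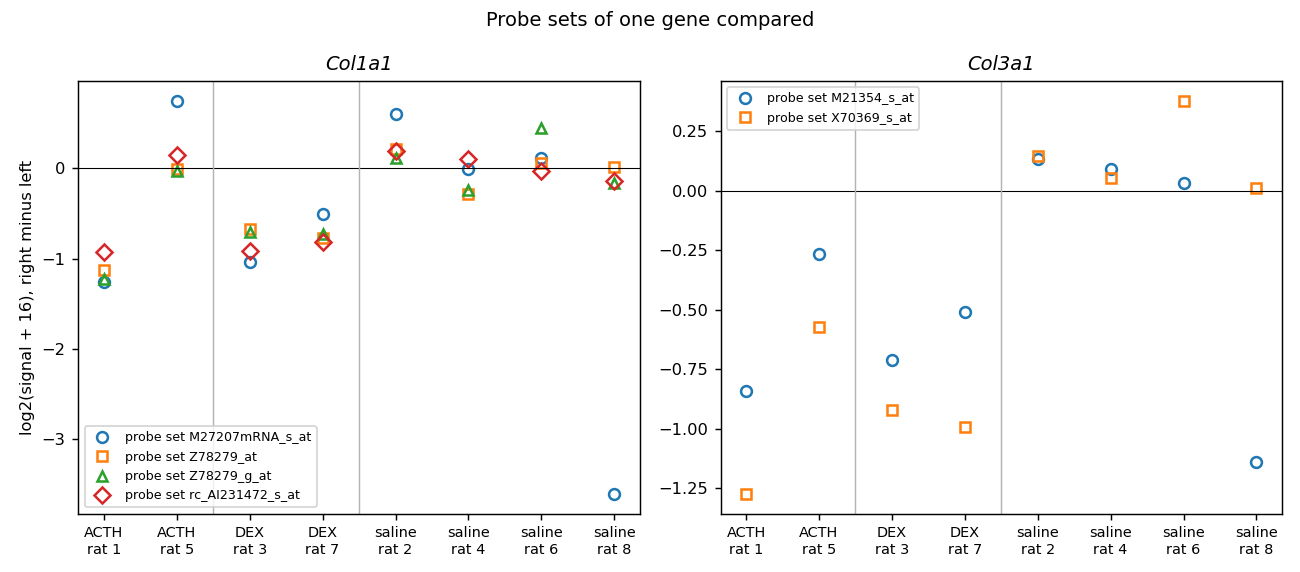
Right minus left change, log2(signal + 16), of each tested Col1a1 (left panel) and Col3a1 (right panel) probe set in every rat, ACTH, DEX and saline rats from left to right. The 2 probe sets that stand apart from the others of their gene do so in saline rat 8, at -3.61 for Col1a1 and -1.14 for Col3a1.

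Basement membrane and network collagens showed little. All 3 tested genes were negative under both agents, with class medians of -0.09 under ACTH and -0.13 under DEX. Col4a5, a chain of the type IV collagen of the glomerular basement membrane, read 107 and 66.8 in ACTH right kidneys, 119 and 92.3 in DEX right kidneys, and 114, 112, 94.9 and 66.6 in saline right kidneys. Its signals in the treated kidneys overlapped fully. Both ACTH changes, -0.38 and -0.12, were below all saline changes, for an effect of -0.35 ± 0.16 (adjusted p = 0.522 in limma), and the DEX effect was -0.02 ± 0.16. Col8a1, a short-chain network collagen of vessels, had the highest mean signal of the class and effects of -0.02 under ACTH and -0.13 under DEX. Among other collagens, Col12a1, which decorates type I fibres, had an ACTH effect of -0.42 ± 0.18 (adjusted p = 0.468 in limma) and a DEX effect of -0.16 ± 0.18. Its change was positive in all 4 saline rats, from 0.05 to 0.68, and -0.26 and -0.01 in the ACTH rats. Col9a1, a cartilage collagen, had effects of 0.02 and -0.01.

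The enzyme P4ha1 had the second smallest p of the tested members under ACTH. Its signals were 129.9 and 141 in ACTH right kidneys, 149 and 134 in DEX right kidneys, and 179, 199, 175 and 143 in saline right kidneys. The left kidneys read 209.9 and 176 in ACTH rats, 123 and 127 in DEX rats, and 149, 109.6, 149.5 and 96.8 in saline rats. Both ACTH right kidneys were below all saline right kidneys, and both ACTH left kidneys were above all saline left kidneys. The effect was -0.89 ± 0.19 (adjusted p = 0.0615 in limma), just outside the threshold, and 0.57 of it on the log2 scale lay in the left kidneys. In saline rats the right kidney was above the left by 0.43 (limma, unadjusted p = 0.0017). The DEX effect was -0.27 ± 0.19.

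Matrix proteins secreted with collagen had values that depended on the probe set. Sparc, a collagen-binding glycoprotein, had 4 tested probe sets. The brightest (rc_AA892248_at) read 2291 and 909 in ACTH right kidneys, 2309 and 1743 in DEX right kidneys, and 1693, 1985, 1640 and 1342 in saline right kidneys. The 2 ACTH rats lay outside the saline range on opposite sides. Its ACTH effect of -0.44 ± 0.33 came from rat 5, with a change of -0.99, whereas rat 1 had 0.55. The DEX effects of the other 3 were -0.65, -0.43 and -0.41, and that of the brightest was -0.06. For Dcn, decorin, a proteoglycan that binds collagen fibrils, the brightest probe set had effects of -0.39 ± 0.24 under ACTH and -0.38 ± 0.24 under DEX. Its right kidneys read 498 and 204 in ACTH rats, 384 and 402 in DEX rats, and 531, 332, 273 and 381 in saline rats, and its left kidneys 493 and 419.9, 551 and 557, and 496, 334, 322 and 451 in the same order of groups. The DEX right kidneys lay inside the saline range, and the DEX left kidneys were above all saline left kidneys. Fn1, fibronectin, and Bgn, biglycan, had effects between -0.20 and -0.40 on their brightest probe sets. Under ACTH these average opposite changes in rats 1 and 5, -0.79 and 0.64 for Fn1 and -0.57 and 0.30 for Bgn. Fn1 probe sets U82612cds_at and U82612cds_g_at had ACTH effects of 0.07 and -0.02, and Bgn probe set rc_AA859830_s_at had -0.25.

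**Figure D3:**
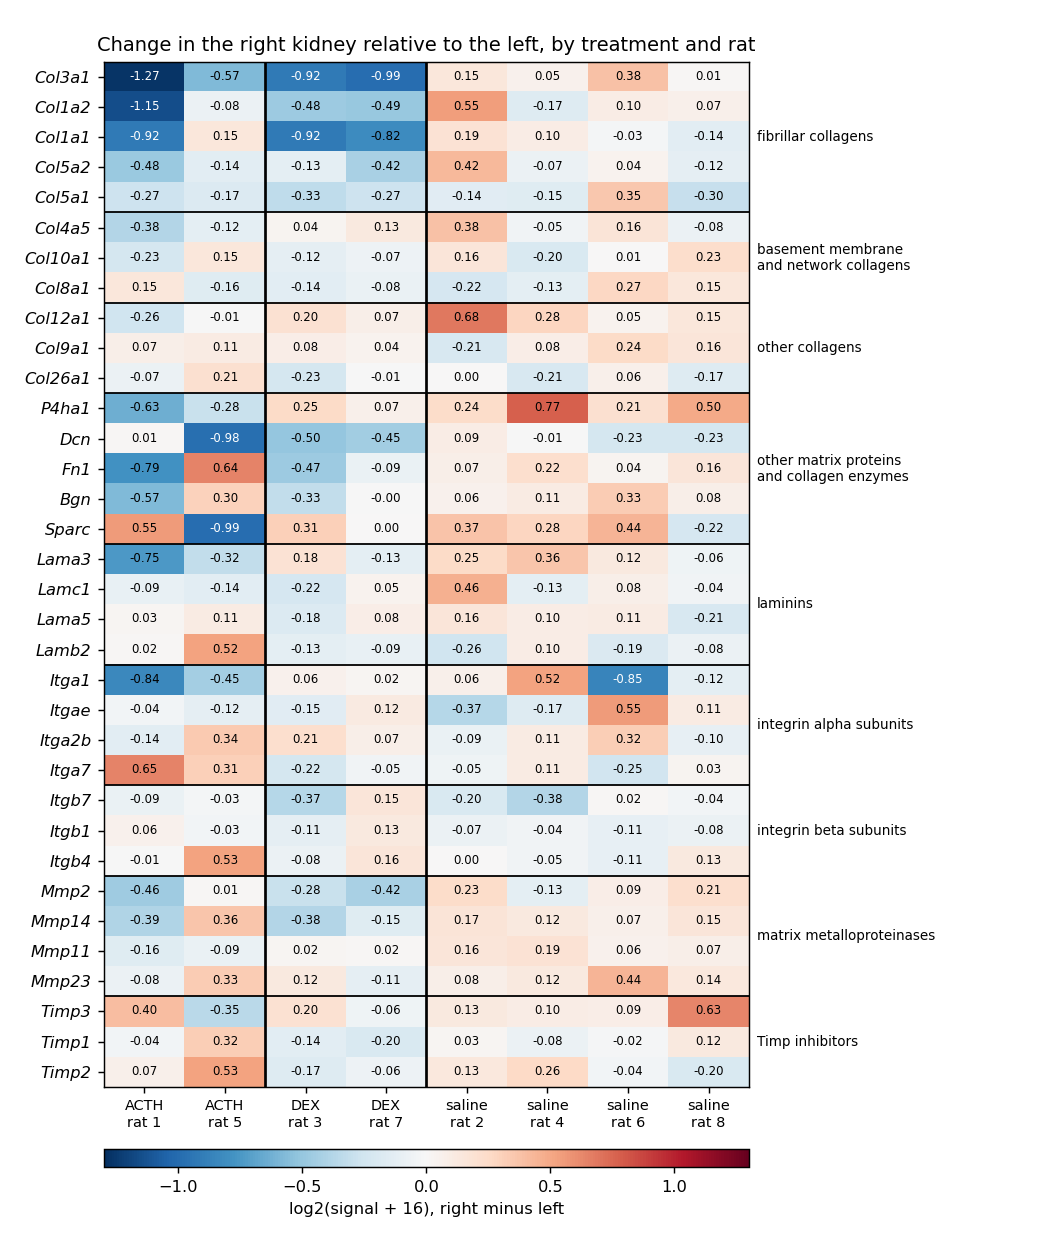
Right minus left change, log2(signal + 16), in each rat for the brightest tested probe set of all 34 genes, by class, with ACTH, DEX and saline rats from left to right; blue is lower and red higher in the right kidney. The fibrillar collagens are blue in ACTH rat 1 and in both DEX rats, and the 2 ACTH rats have opposite signs for Sparc (0.55 and -0.99) and Fn1 (-0.79 and 0.64).

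Laminins, the trimeric adhesive proteins of basement membranes, had class medians of -0.09 under ACTH and -0.11 under DEX, and single genes pointed both ways under ACTH. Lama3, an alpha chain of epithelial laminin, read 59.4 and 38.7 in ACTH right kidneys, 92.7 and 57.4 in DEX right kidneys, and 97.2, 101, 60.6 and 40.3 in saline right kidneys. Its changes were -0.75 and -0.32 under ACTH and 0.18 and -0.13 under DEX, against 0.25, 0.36, 0.12 and -0.06 under saline. The 2 ACTH rats were below every saline rat, and the DEX rats were not. The ACTH effect was -0.70 ± 0.17 (adjusted p = 0.106 in limma) and the DEX effect -0.14 ± 0.17. Lamb2, a beta chain needed for the glomerular filter, had positive ACTH effects on both probe sets, 0.38 ± 0.18 and 0.39 ± 0.19 (adjusted p = 0.536 for each in limma), and DEX effects of -0.004 and -0.04.

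Among integrins, Itga7, the alpha subunit of a laminin receptor of muscle, stood on the other side. It read 390.1 and 279 in ACTH right kidneys, 182 and 270 in DEX right kidneys, and 204, 172, 237 and 225 in saline right kidneys. Its left kidneys read 243 and 222 in ACTH rats, 215 and 279.6 in DEX rats, and 212, 158, 284 and 220 in saline rats. The ACTH right kidneys were above all the saline ones. The ACTH effect was 0.52 ± 0.17 (adjusted p = 0.288 in limma), and its second tested probe set had 0.35 ± 0.17. The DEX effects of the 2 probe sets were -0.10 and -0.06. Smooth muscle and mesangium markers had positive ACTH effects in 6 of 6 tested, with a median of 0.35, and their summed signal was 1399 to 1682 in ACTH right kidneys, 1145 to 1356 in DEX right kidneys and 1004 to 1197 in saline right kidneys. Their part in the Itga7 value was not tested. Itga1, a collagen receptor subunit, had an ACTH effect of -0.54 ± 0.29 and a DEX effect of 0.14 ± 0.29, with saline changes from -0.85 to 0.52. The 3 tested beta subunits had small positive effects of both agents. That of Itgb1, the subunit shared by most collagen and laminin receptors, was 0.09 ± 0.15 under ACTH and 0.08 ± 0.15 under DEX, and Itgb4 had 0.26 ± 0.17 and 0.05 ± 0.17.

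All 4 tested Mmp genes were negative under both agents, with class medians of -0.19 under ACTH (0.02 without rat 1) and -0.29 under DEX, and none passed the threshold. Mmp2, a gelatinase that stromal cells secrete, read 109.6 and 104 in ACTH right kidneys, 93.5 and 95.2 in DEX right kidneys, and 154, 114, 114 and 118 in saline right kidneys. All 4 hormone right kidneys were below every saline right kidney. The right minus left changes overlapped, with 0.01 in ACTH rat 5 and -0.13 in saline rat 4. The DEX effect was -0.45 ± 0.17 (unadjusted p = 0.0206, adjusted p = 0.999 in limma) and the ACTH effect -0.33 ± 0.17, while its second probe set had -0.17 and -0.04. Mmp14, the membrane enzyme that activates Mmp2, had a DEX effect of -0.39 ± 0.19 and an ACTH effect of -0.14 ± 0.19. For Mmp11, stromelysin 3, all 4 hormone changes, from -0.16 to 0.02, were below the 4 saline changes, from 0.06 to 0.19, and its effects were -0.25 ± 0.13 under ACTH and -0.10 ± 0.13 under DEX. The Timp genes did not share a direction under ACTH. Class medians were 0.13 under ACTH and -0.17 under DEX. Timp3, the inhibitor that binds to matrix, had effects of -0.21 ± 0.23 and -0.17 ± 0.23, which were -0.08 and -0.03 without saline rat 8.

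**Figure D4:**
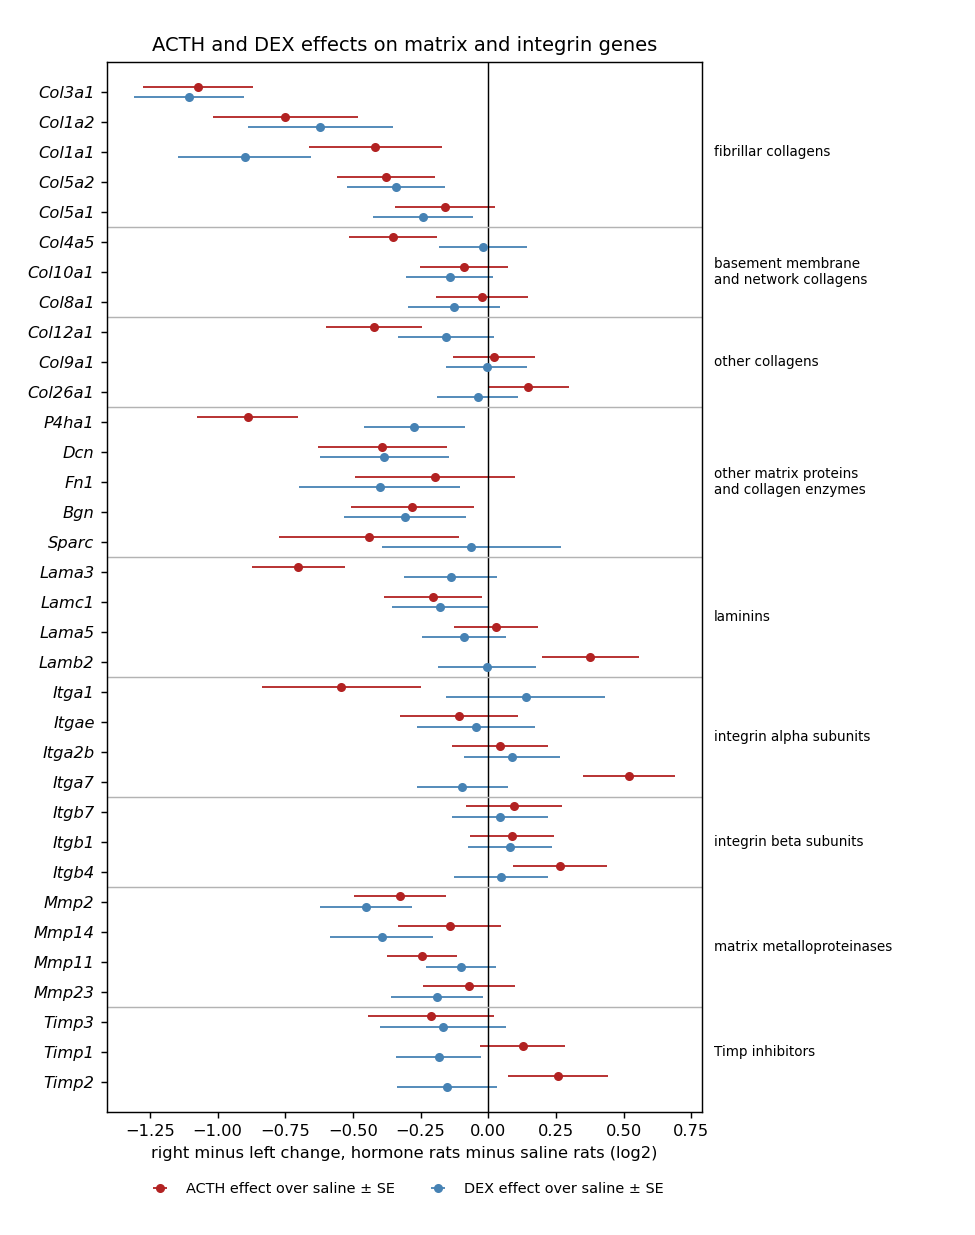
ACTH (red) and DEX (blue) effects over saline on the log2 scale, with bars of 1 SE, for the brightest tested probe set of all 34 genes by class. Col3a1 is at -1.07 and -1.10, P4ha1 and Lama3 are at -0.89 and -0.70 under ACTH with DEX values of -0.27 and -0.14, and Itga7 is at 0.52 under ACTH and -0.10 under DEX.

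Over all 51 tested member probe sets, the ACTH effect was called for 1, Col3a1, beside 0.496% of all tested probe sets. At an unadjusted p under 0.05, 7 members (13.7%) were lower under ACTH, of 6 genes, beside 5.17% of all tested probe sets, and 1 was higher, Itga7, beside 4.27%. Both ACTH rats lay below all saline rats for 8 members (15.7%), beside 7.84%. They lay above all saline rats for 3 members, and that share was not taken over all probe sets. Negative ACTH effects were found for 33 members (64.7%), beside 50.1% of all probe sets. The 7 lower members became 16 without ACTH rat 5 (beside 4.98% of all tested probe sets) and 4 without saline rat 2 (beside 3.66%), and there were 18 in rats 1 to 4 alone (beside 8.81%) and 4 in rats 5 to 8 alone (beside 3.22%).

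DEX called no member and 0.0% of all tested probe sets. Here 8 members (15.7%) of 5 genes were lower at an unadjusted p under 0.05, beside 1.14%, and none was higher, beside 1.79%. Both DEX rats lay below all saline rats for 18 members (35.3%) of 12 genes, beside 6.33%. They lay above all saline rats for none, and that share was not taken over all probe sets. Negative DEX effects were found for 46 members (90.2%), beside 50.5% of all probe sets. That count was 45 in rats 1 to 4 alone, 37 in rats 5 to 8 alone and 37 to 46 with 1 rat left out. The 8 lower members became 3 without DEX rat 7 (beside 0.553% of all tested probe sets), 13 without either ACTH rat, whose spread enters the error (beside 1.87% without rat 1 and 1.83% without rat 5), 13 in rats 1 to 4 alone (beside 2.19%) and 7 in rats 5 to 8 alone (beside 0.534%). For the mean of both effects, 0.0% of all tested probe sets were called, 10 members (19.6%) were lower at an unadjusted p under 0.05 beside 1.83% (20 in rats 1 to 4 alone beside 4.81%, and 2 in rats 5 to 8 alone beside 0.82%), and all 4 hormone rats lay below all 4 saline rats for Col3a1, Col5a2 and Mmp11, which is 5.88% of members beside 0.877%. Member probe sets share genes, and the genes share cells, so these counts are not counts of independent tests.

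The ACTH and DEX effects were also compared with each other. None of the members passed, while 0.572% of all tested probe sets did. At an unadjusted p under 0.05 the members with a lower effect under ACTH than under DEX were P4ha1 (-0.61 ± 0.22) and Lama3 (-0.56 ± 0.20), and those with a higher one were Itga7 (0.62 ± 0.20), 1 Timp1 probe set (0.46 ± 0.17) and 1 Sparc probe set (0.46 ± 0.20). These 2 lower and 3 higher members are 3.92% and 5.88% of the 51, beside 8.22% and 3.97% of all tested probe sets, so the members did not stand out here. The smallest adjusted p in limma was 0.237, for Itga7. For Col3a1 the difference was 0.03 ± 0.24.

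Within each treatment, right and left kidneys were compared as well. In ACTH rats Col3a1 was the 1 member called, beside 3.57% of all tested probe sets. In DEX rats 0.0% of probe sets were called, 10 members (19.6%) were lower in the right kidney at an unadjusted p under 0.05, beside 2.38% of all tested probe sets, and Col3a1 had -0.96 (adjusted p = 0.145 in limma). In saline rats 0.0% of probe sets were called, and Col12a1 and P4ha1 were the 2 members (3.92%) higher in the right kidney at an unadjusted p under 0.05, a share near the 2.5% of all tested probe sets.

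Each effect is the right kidney difference between hormone and saline rats minus the same difference in the left kidneys, so both can be read apart. The left kidneys of hormone rats against those of saline rats called 0.0% of probe sets, and no member reached an unadjusted p under 0.05 there. By agent, P4ha1 did under ACTH (left difference 0.57, unadjusted p = 0.0157 and adjusted p = 1.00 in limma), as did 2 Dcn probe sets under DEX (unadjusted p = 0.0457 and 0.0494, adjusted p = 1.00 in limma), all higher than in saline rats. These are 1.96% and 3.92% of members, beside 0.248% and 0.572% of all tested probe sets. In addition, the left kidneys of DEX rats were above those of saline rats for 41 of 51 members, with a median difference of 0.10, while 2595 of 5244 probe sets were. The right kidneys of DEX rats were below those of saline rats for 34 members, with a median of -0.08, while 2725 of 5244 probe sets were. For the 9 fibrillar collagen probe sets the DEX right kidney difference was negative in 9, with a median of -0.43, and the left kidney difference was positive in 7, with a median of 0.26. For ACTH these were 8 negative with a median of -0.39, and 7 positive with a median of 0.17. Col3a1 had right and left differences of -0.90 and 0.17 under ACTH and of -0.80 and 0.30 under DEX. Most of its effect thus lay in the treated kidney. Dcn had 0.09 and 0.47 under DEX, so its effect lay in the left kidneys. In the right kidneys alone no member passed the threshold (Col3a1 adjusted p = 0.916 under ACTH in limma), and with rats 5 to 8 as a block, a term added after the data were seen, Col3a1 had adjusted p = 0.0576.

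**Figure D5:**
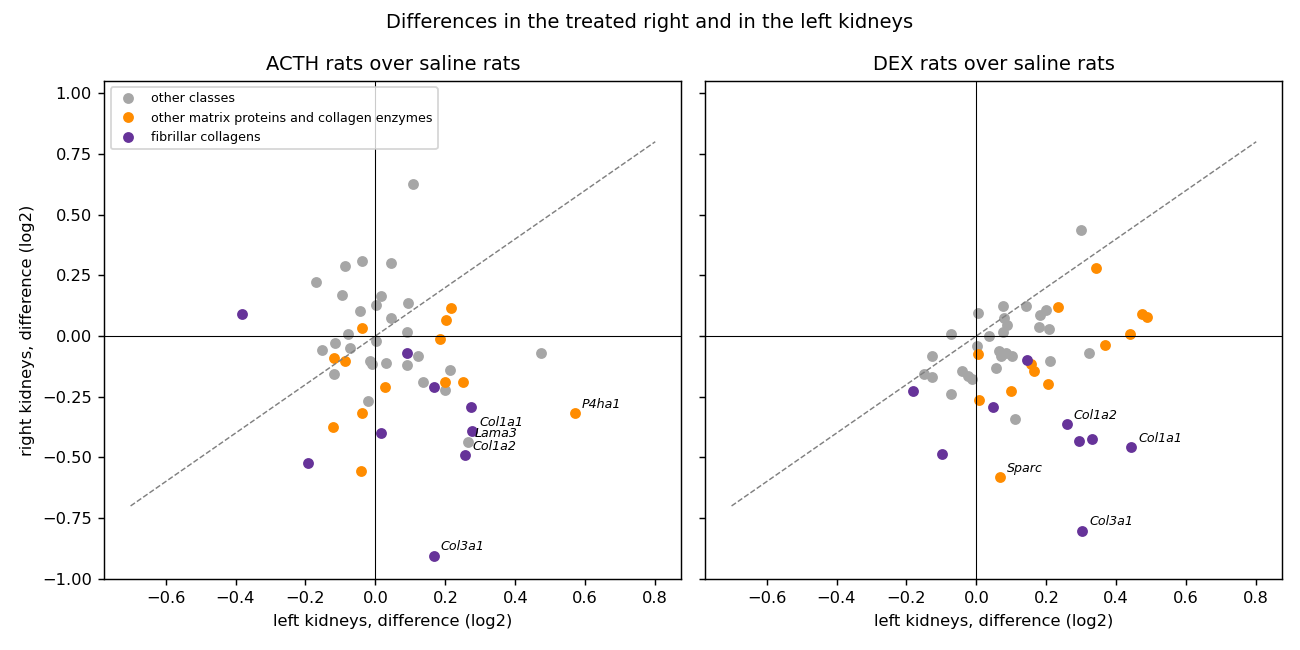
Difference between hormone and saline rats, log2(signal + 16), in the left kidneys (horizontal) and in the treated right kidneys (vertical) for the 51 tested probe sets, ACTH in the left panel and DEX in the right panel; the effect is the vertical distance from the dashed line of equal differences, and the genes farthest below that line are named once at their lowest probe set. Fibrillar collagens lie below the horizontal line in all 9 cases for DEX, and Dcn lies to the right near 0.

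The arrays fell into 2 sets, unnamed in the labels, of which rats 1 to 4 formed one and rats 5 to 8 the other, each with 1 ACTH, 1 DEX and 2 saline rats. In the left kidneys, 8 member probe sets were higher in all of rats 1 to 4, among them a Dcn probe set (113 to 146 in rats 1 to 4 and 39.3 to 62.0 in rats 5 to 8) and Lama3 (75.4 to 111 and 42.6 to 64.1), and 2, of Timp1 and Timp2, were higher in all of rats 5 to 8. These are 15.7% and 3.92% of the members, beside 16.2% and 19.6% of all tested probe sets. The rat term takes out this difference in level. It does not take out a difference in effect, and the ACTH median of the fibrillar collagens was -1.07 in rats 1 to 4 and -0.16 in rats 5 to 8. The DEX medians were -0.66 and -0.58.

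The tissue carried its kidney markers: the 8 tubule and podocyte markers on the array summed to between 13420 and 18970 in every kidney. The sum was 13420 to 13670 in ACTH right kidneys, below every saline right kidney (14370 to 18970), and 15490 to 18200 in DEX right kidneys. Under ACTH 5 of the 8 had negative effects, with a median of -0.24 beside 0.00 over all tested probe sets, and Kap, a transcript of proximal tubules, fell by 0.78 (limma, adjusted p = 0.018). Under DEX 2 were negative, with a median of 0.20. Fat markers varied far more. Their sum was 1653 and 12150 in ACTH right kidneys, 961 and 1207 in DEX right kidneys, and 1021 to 1520 in saline right kidneys, with 1062 and 3232 in ACTH left kidneys, 2294 and 2530 in DEX left kidneys, and 902.5 to 3843 in saline left kidneys. The highest value was that of ACTH rat 1, which also had the lowest fibrillar collagen median. Fat markers had a median effect of 1.03 under ACTH and -1.34 under DEX. With a fat marker score as a covariate, the fibrillar median was -0.37 under ACTH and -0.76 under DEX, and Col3a1 had -0.68 ± 0.25 (adjusted p = 0.273 in limma) and -1.43 ± 0.23 (adjusted p = 0.132 in limma). Fibroblast markers had median effects of 0.09 under ACTH and -0.20 under DEX, where 5 of 5 were negative, and their sum was 726 to 1009 in ACTH right kidneys, 550.5 to 709.7 in DEX right kidneys and 594 to 734 in saline right kidneys. Endothelial markers were negative in 3 of 5 under ACTH and in 5 of 5 under DEX, with medians of -0.12 and -0.16. Leukocyte markers had medians of -0.22 and -0.14, and the 2 erythrocyte markers 0.16 and -0.60, under ACTH and DEX. The part of these cells in the collagen values was not tested.

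Other genes of matrix assembly and of its inducer TGF-beta were taken as a list of 50, of which 39 were on the array and 36 were tested, and no list member was called for either agent. At an unadjusted p under 0.05 in limma, 2 (5.56%) were lower under ACTH, beside 5.17% of all tested probe sets, and 1 (2.78%) was higher, beside 4.27%. Under DEX there were 0 in either direction, beside 1.14% lower and 1.79% higher. The list is thus near the share over all probe sets. Median effects were -0.05 under ACTH and -0.07 under DEX. Pdgfra, a growth factor receptor of stromal fibroblasts, had an ACTH effect of -0.64 ± 0.15 (adjusted p = 0.106 in limma) and a DEX effect of -0.26 ± 0.15. Its changes were -0.58 and -0.23 under ACTH, against 0.17, 0.29, 0.19 and 0.27 under saline. Pdgfra is also 1 of the 5 fibroblast markers, of which 2 had negative ACTH effects, with a median of 0.09 over the 5. Ctss, cathepsin S, a lysosomal protease of macrophages, had an ACTH effect of -0.61 ± 0.19, and Plaur, the urokinase receptor, had 0.36 ± 0.15.

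The 31 member probe sets below the brightness filter had mean signals between 12.5 and 54.8, and 19 genes had none above it. These included all 4 probe sets of Lox, the cartilage collagens Col2a1 and Col11a1, and 8 of the 12 Mmp genes. Without the filter, Col4a3, another type IV chain of the glomerulus, had an ACTH effect of -0.30 and a DEX effect of -0.24, with changes of -0.06 and -0.47 under ACTH and -0.27 and -0.13 under DEX, against 0.04, -0.03, -0.05 and 0.19 under saline. The third Itga7 probe set had an ACTH effect of 0.42 and a DEX effect of -0.19, so all 3 Itga7 probe sets were higher under ACTH. Mmp9, gelatinase B, was lower in the right than in the left kidney of all 8 rats, with changes of -0.92 and -0.16 under ACTH, -0.51 and -0.34 under DEX, and -0.20 to -0.38 under saline. The difference was thus there in saline rats too. Every right kidney had been given an agent or saline, so the side and the giving cannot be told apart.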

How the data were processed

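The deposited values are probe set signals, and the submitters' table holds them as array intensity on a linear scale. Neither software, background correction nor normalization of the authors' deposited intensity values is given in the sources used here. Per the labels' protocols, Tri-Reagent and RNeasy were used for total RNA, of which 5 to 8 µg gave biotin-labelled cRNA. Array medians lay between 76.0 and 82.1, a span of 0.11 on the log2 scale, so the arrays were not scaled again. Precision is limited by how many rats there are. Of 8799 probe sets, 59 controls were removed. The remaining values were converted to log2(signal + 16), and the 40% of probe sets with the lowest mean (3496) were left out, leaving 5244 with a mean signal of at least 60.5.

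limma 3.58.1 in R 4.3.3 was fitted with rat as a block, the right kidney, and ACTH and DEX in the right kidney (moderated variance with an intensity trend, residual degrees of freedom 5, prior 7.34). Tests were two-sided. The 2 kidneys of a rat share the animal. The deviations of its 2 arrays from their group means correlated at 0.623 to 0.763. Each group holds rats of both sets of arrays, so this correlation also contains the difference between those sets. With 2 rats per hormone, both rats of an agent give the same value, 0.646 for ACTH and 0.757 for DEX. Rats are the replicates, and nothing in the labels tells how they were housed or processed. No 2 arrays were identical. The fit was tested on simulated data.

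Members were found by symbol, and all 82 matched by Entrez identifier to a current rat symbol. The platform gave several symbols for 308 probe sets and none for 1426, and none of these was named. Each gene was described by its brightest probe set. Named were members past the threshold, the 8 with the smallest p for ACTH, DEX and their mean, the member with the smallest p and the one with the highest mean in each class, and their further probe sets. Others were named after their values were seen. The members and all lists (50 pathway genes and markers of fat, smooth muscle and mesangium, fibroblast, endothelium, leukocyte, erythrocyte, and kidney tubule and podocyte) were chosen with earlier results of these data known. The annotation names no genome build, so genes have no coordinates here. Promoter windows are from RefSeq. Alternatives were the right kidneys alone, no rat block, other pseudocounts (1 and 64), filters, quantile normalization, no intensity trend, robust moderation, a fat score covariate, each set of 4 rats, and each rat left out.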

Additional observations from a re-analysis of the deposited data

Results flagged for a closer look

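Of 96 groups of 4 or more arrays examined for a sample far from the others, 6 had one, and chance alone gives about 1 in 20. In 4 of the 6 it was a value of saline rat 8. Its right minus left change was -1.14 on Col3a1 M21354_s_at (the other saline rats 0.03 to 0.13), where its left kidney signal was 392 (the other left kidneys 139 to 207). On Col1a1 M27207mRNA_s_at its change was -3.61 (the others -0.01 to 0.61), and on Timp3 it was 0.632 (the others 0.09 to 0.13). Other probe sets of Col3a1 and Col1a1 did not set rat 8 apart. In the right kidney of saline rat 2 the signal was 154 on Mmp2 U65656_at (the other saline right kidneys 114 to 118) and 194 on Col1a1 Z78279_at (the others 108 to 118).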

How the results depend on the processing

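The fit with rat as the replicate block is the one reported, because the 2 kidneys come from 1 animal. With no replicate block, 0 members were called under ACTH in place of 1, beside 0 of all 5244 tested probe sets, with Col3a1 at -1.07. The members lower at an unadjusted p under 0.05 numbered 2 for ACTH, 2 for DEX and 3 for the mean, in place of 7, 8 and 10. Of all 5244 tested probe sets, 60, 5 and 19 were lower in that fit. In the right kidneys alone, where the left kidneys are not subtracted, the lower members numbered 3, 5 and 6, beside 109, 22 and 49 of 5244. No member was called there, beside 0 of 5244, and Col3a1 was -0.905 under ACTH. Adding rats 5 to 8 as a block there, an alternative chosen after seeing the data, left 0 member calls and the same -0.905. Under ACTH that fit called 10 of all 5244 tested probe sets. In both, the sign turned for Col9a1 (mean effect -0.103), Itga1 (0.184), Sparc (0.046) and Dcn (DEX, 0.09). The DEX effects of Sparc (0.28), Col4a5 (0.123), Itga7 (0.087) and Lama3 (0.039) turned there too. Over the brightest probe sets of all 34 genes, 3 turned for ACTH, 9 for DEX and 6 for the mean.

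For called members under ACTH, leaving out the lowest 60% gave 2, robust moderation 2, quantile normalization 0 (Col3a1 -1.03) and the fat score 0 (Col3a1 -0.676). Over all tested probe sets, these fits called 31 of 3496, then 44, 12 and 0 of 5244. The reported fit called 26 of 5244. For the mean effect, leaving out the lowest 60%, robust moderation and no intensity trend gave 1 call, Col3a1 at -1.09, as did the fat score, at -1.055. Over all tested probe sets, these 4 fits called 2 of 3496, then 4, 2 and 2 of 5244.

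Rats 1 to 4 alone gave 14 calls for ACTH, 4 for DEX, 12 for the mean and 5 for ACTH minus DEX, beside 5.64%, 0.763%, 2.42% and 4.86% of all tested probe sets, with 18, 13 and 20 members lower at an unadjusted p under 0.05, and Col3a1 at -1.02 for DEX and -1.197 for the mean. Rats 5 to 8 alone gave 0 calls for ACTH, beside 0.0% of all tested probe sets, with 4 (ACTH) and 2 (mean) lower and Col3a1 at -0.767 for ACTH. These fits have 1 rat per hormone and take their spread from the 2 saline rats and from the moderation over probe sets. The mean effect turned in rats 1 to 4 for Col8a1 (0.181), Itgb4 (-0.019), Sparc (0.1) and Timp3 (0.186), and in rats 5 to 8 for Col9a1 (-0.127), Itga1 (0.278) and Fn1 (0.178). The ACTH effects of Fn1 (0.542), Mmp14 (0.249), Col1a1 (0.233) and Bgn (0.097) were positive there. Of the 34 genes, 8 turned for ACTH, 9 for DEX and 7 for the mean in rats 1 to 4, and 9, 8 and 5 in rats 5 to 8.

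Class medians moved by more than the saline rats' SD as follows. In rats 1 to 4 the ACTH medians were -0.01 for Timp, -1.066 for fibrillar collagens, -0.426 for Mmp and -0.657 for other matrix proteins, and the DEX medians -0.056 for integrin beta, -0.245 for Mmp, -0.13 for other collagens and -0.408 for other matrix proteins. In rats 5 to 8 the ACTH medians were 0.263 for Timp, -0.16 for fibrillar collagens, 0.138 for integrin alpha, 0.059 for integrin beta, -0.051 for Mmp, -0.095 for other collagens and -0.637 for other matrix proteins, and the DEX medians -0.251 for Timp, 0.165 for integrin beta, 0.036 for laminins, -0.333 for Mmp and -0.209 for other matrix proteins. With the fat score the ACTH medians were 0.281 for integrin alpha, 0.173 for integrin beta, -0.098 for Mmp, 0.215 for other collagens and -0.767 for other matrix proteins, and the DEX medians -0.082, -0.017, -0.475 and -0.167 for the first 4 of these. Quantile normalization gave 0.129 for integrin beta under ACTH. A pseudocount of 64 gave -0.138 (ACTH) and -0.226 (DEX) for Mmp. All tested probe sets of a class, in place of 1 per gene, gave 0.029 for laminins, -0.142 for Mmp and -0.238 for other matrix proteins under ACTH, and -0.19 for Mmp under DEX. The cause of these moves was not tested.

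With 1 rat left out, ACTH calls ran from 0 to 8 (8 without rat 5, beside 2.17% of all tested probe sets), calls for the mean effect from 0 to 5 (5 without rat 5, beside 0.706%) and calls for ACTH minus DEX from 0 to 1, and DEX had 0. The members lower at an unadjusted p under 0.05 numbered 4 to 16 for ACTH, 3 to 13 for DEX and 7 to 14 for the mean. Those ranges include fits that leave 1 rat of an agent. With a saline rat left out, the lower members numbered 4 to 10 for ACTH, beside 177 to 344 of 5244 tested probe sets. They numbered 6 to 8 for DEX, beside 49 to 71, and 9 to 12 for the mean, beside 79 to 145. For ACTH minus DEX, 0 members were called in those fits, beside 7 to 25 of 5244. Col3a1 ranged from -1.423 to -0.719 under ACTH and from -1.263 to -0.912 for the mean. Mean effects near 0 changed sign within their range: Col8a1 (-0.153 to 0.008), Col9a1 (-0.086 to 0.066), Itga1 (-0.454 to 0.005) and Sparc (-0.638 to 0.135). ACTH medians ranged from 0.026 to 0.302 for Timp, -0.28 to -0.029 for network collagens, -0.953 to -0.205 for fibrillar collagens, -0.132 to 0.099 for integrin alpha, 0.065 to 0.15 for integrin beta, -0.399 to 0.021 for Mmp, -0.072 to 0.08 for other collagens and -0.718 to -0.329 for other matrix proteins. DEX medians ranged from -0.07 to 0.201 for integrin beta, -0.304 to -0.243 for Mmp and -0.409 to -0.214 for other matrix proteins.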
